A study of Mus musculus with 6 samples.

Results

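The translation initiation factors (eIF) and elongation factors (eEF) bring the ribosome to a start codon and move it along the messenger RNA. Their genes were taken from the mRNA table by symbol, as those that begin with Eif1 to Eif6, Eef1 or Eef2. The eIF2 kinases and the 4E-binding protein genes, 7 symbols in all, were left out, as were symbols with -ps. This gave 64 of 22298 genes. The rule reads the symbol alone. The 64 genes include the subunits of eIF1 to eIF6, eEF1 and eEF2, some paralogues, and enzymes that modify elongation factors.

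The study compared RNA from spermatogonial cells with and without siRNA against METTL3, the enzyme that writes the mark N6-methyladenosine (m6A) into messenger RNA. All 6 libraries came from GC-1spg, a mouse line of immortalised cells that stands in for type B spermatogonia, and 3 belonged to each group. The si-METTL3 group was transfected with siRNA against METTL3 and the si-NC group with a control siRNA, at 60% cell density in DMEM with 10% FBS, and total RNA was collected after 48 h. The control libraries carry the tag untreated, although their titles and the protocol name a control siRNA, and no untransfected cells were sequenced. The labels print 1 sequence for both siRNAs, which leaves that of the control unknown. Nothing says that the 3 replicates of a group were separate cultures. The p-values therefore measure only the spread among the libraries sequenced, and that spread may be technical. Neither m6A nor any protein was measured.

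The mRNA table held 22146057 to 37698956 counts per library. Levels of 1 gene are given as CPM, counts scaled to the size of the library, and levels between genes as TPM, which are scaled to transcript length as well. Mettl3, the targeted gene, stood at 17.3, 19.2 and 18.6 CPM in the si-NC libraries and at 4.44, 5.97 and 5.52 CPM in the si-METTL3 libraries, so every library was in keeping with its label. Its log2 fold change was -1.79 ± 0.14 (SE, n = 3 and 3; edgeR adjusted p = 0.000579). Of 12 germ line and spermatogonial markers, 5 had enough counts to be tested, and Sall4 was at 0 in every library. By edgeR 1 of the 5 (Gfra1) was higher in si-METTL3, with 2 at an unadjusted p under 0.05. DESeq2 called 0 of the 5 and limma-voom 1. For the 13 markers of lung epithelium the sums were 3.73 CPM in si-NC 1, 2.29 CPM in si-NC 2 and 64.4 CPM in si-NC 3, against 67.6 to 102 CPM in the si-METTL3 libraries. Of these 13, 12 were tested and none passed edgeR's threshold, with 4 at an unadjusted p under 0.05, 1 called by DESeq2 and 6 by limma-voom, and none was at 0 in all libraries. For the 5 blood markers the sums were 0.448, 0.809 and 11.8 CPM across the controls and 12.4 to 19.1 CPM after si-METTL3. The 8 macrophage and endothelial markers summed to between 16.3 and 22.3 CPM in the controls and to between 24.6 and 27.1 CPM after si-METTL3, and the 8 brain markers to between 68.6 and 71.7 CPM and between 74.5 and 79.6 CPM. In both lists every si-METTL3 library lay above every control, and 1 brain marker (Syt1) was called higher. The part of this RNA in the results below was not tested.

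Initiation in animal cells begins when eIF2 carries the initiator tRNA to the small ribosomal subunit, together with eIF1, eIF1A, eIF3 and eIF5. The eIF4 factors bind the cap and unwind the leader, eIF1 and eIF1A hold the scanning complex open until it meets a start codon, and eIF5B joins the large subunit. eIF2B then recharges eIF2 with GTP. In elongation, eEF1A delivers each aminoacyl-tRNA, the eEF1B subunits recharge it, eEF2 moves the ribosome by a codon, and eIF5A, which carries the amino acid hypusine, helps at slow steps. Cells regulate the system chiefly through phosphorylation of eIF2 and eEF2 and through the TOR kinase.

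After transfection with si-METTL3, 13 of the 61 tested factor genes were lower and 3 were higher (edgeR's quasi-likelihood test over 13082 genes, adjusted p under 0.05). The lower ones were Eef1aknmt, Eif4a3, Eif6, Eif3d, Eif1, Eif1ad, Eef1d, Eif3g, Eif2s1, Eef1g, Eif4e2, Eif3m and Eif3l, and the higher ones Eef2k, Eif4g3 and Eif3j1. The lower genes made up 21.3% of the tested factors, against 10.2% of all tested genes, and the higher ones 4.92%, against 8.67% of all. No test of these shares against each other was run. Most of the changes were modest: the log2 fold changes of the lower genes ran from -1.01 to -0.26. Of the 61 genes, 46 had a negative fold change (75.4%, against 46.95% of all tested genes), and the median was -0.16, against 0.03 over all tested genes. In 21 genes every si-METTL3 library lay below every si-NC library and in 5 above, whereas such gaps were seen in 21.3% (lower) and 20.2% (higher) of all tested genes. Because these are bulk samples, fewer cells of a type and less RNA per cell cannot be told apart.

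**Figure D1:**
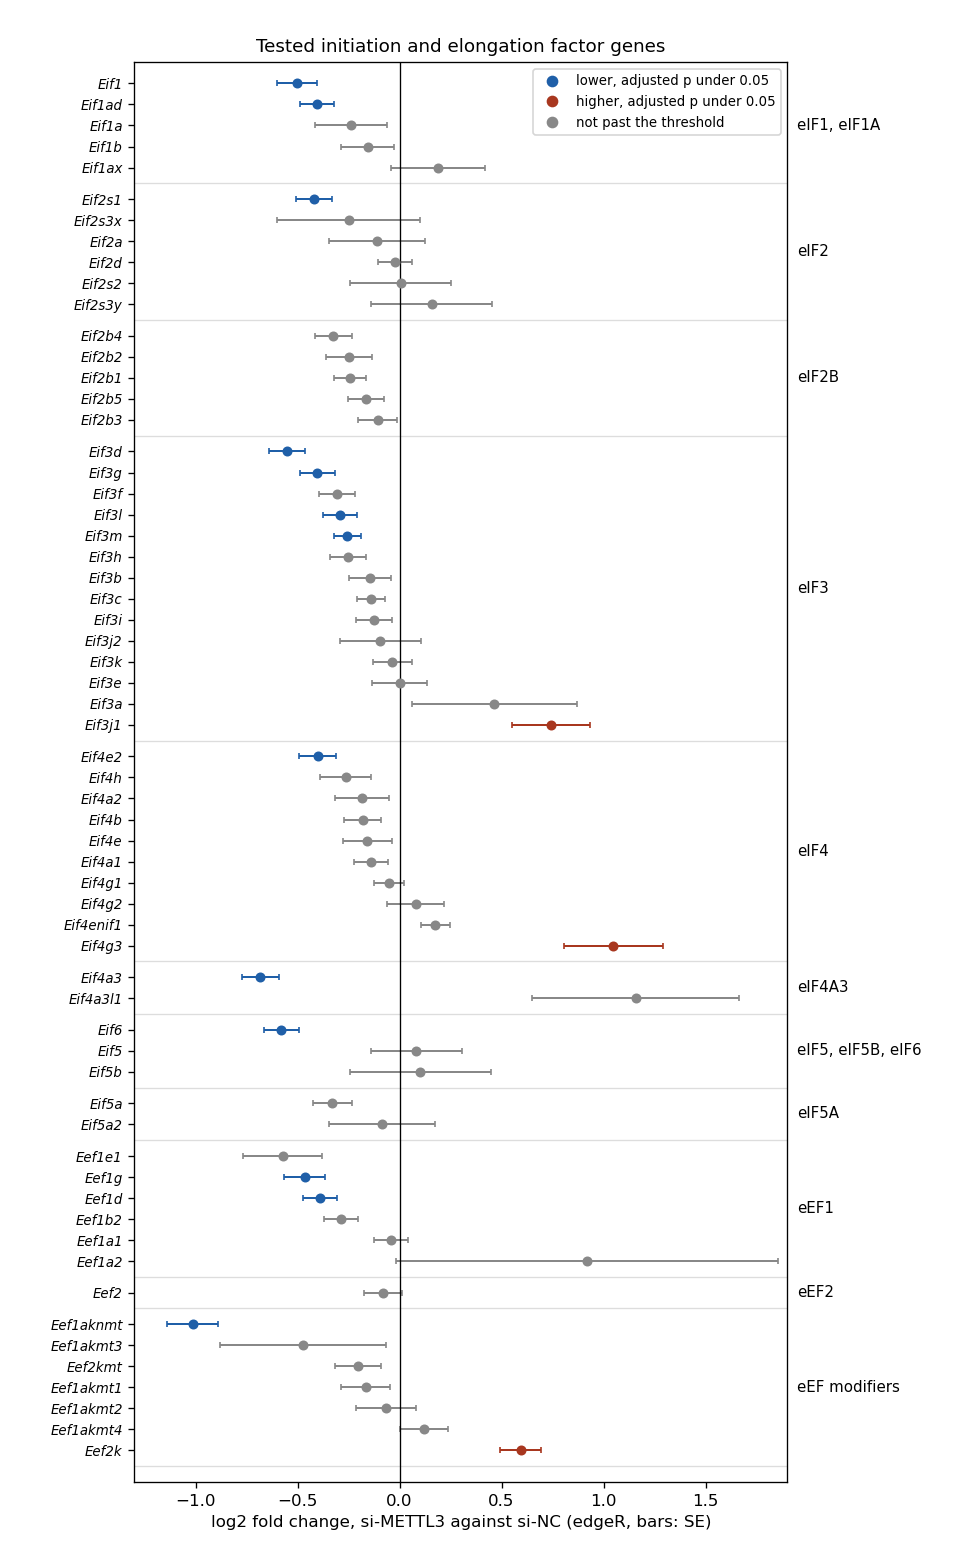
Log2 fold change of each of the 61 tested factor genes, si-METTL3 against si-NC, with its SE as bars, ordered within each class of factor. Blue points (13) were lower and red points (3) higher at an adjusted p under 0.05, and grey points (45) did not pass. Most points lie left of 0, and the red ones come from 3 different classes.

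The remaining 3 genes had too few counts for a test. Eif4e1b, the form of eIF4E known from oocytes, had 0 counts in every library. Eif4e3 had 3 to 7 counts per library and Eif4a3l2, a copy of Eif4a3, had 4 to 17. In the authors' deposited table, whose test is unknown here, 21 of the 64 genes had an adjusted p under 0.05. All 16 genes called here were among those 21, with the same sign, and the other 5 were Eef1b2, Eef1e1, Eif2b4, Eif3f and Eif5a.

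How many genes passed depended on which libraries were compared. Without si-NC 2, 28 factors were lower and 4 higher, against 18.9% and 17.9% of all genes. Without si-NC 1 the counts were 4 and 0, against 2.91% and 2.74% of all genes. Without si-NC 3 they were 9 and 2 (6.08% and 6.17% of all), and without si-METTL3 1 they were 10 and 2 (6.13% and 4.12%). Without si-METTL3 2 they were 3 and 1 (2.72% and 2.44%), as they were without si-METTL3 3 (2.63% and 2.36%). The factor genes followed the whole table in this, and in all 6 of these fits the number lower exceeded the number higher. Eef1aknmt, Eif4a3 and Eif6 were lower in all 6. Eef2k kept its call in 5 of the fits and Eif3d in 4. For Eif1, Eif1ad, Eif3g and Eef1d the call held in 3, and for Eef1g, Eif2s1, Eif4e2, Eif4g3 and Eif3j1 in 2. Eif3m and Eif3l were called in 1.

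**Figure D2:**
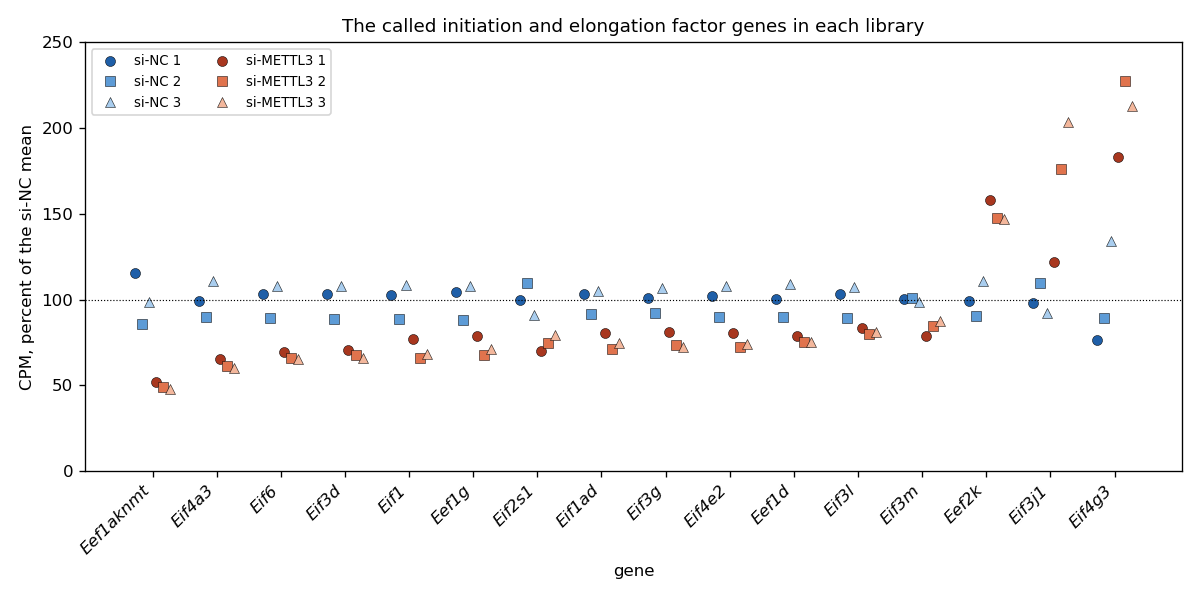
CPM of the 16 called genes in each library, as a percentage of the gene's si-NC mean (dotted line), with circles, squares and triangles for replicates 1, 2 and 3, si-NC in blue and si-METTL3 in red. The groups do not overlap in any of the 16 genes. In most of the lower genes si-NC 2 is the lowest of the blue points.

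The sequences below show the siRNA as the labels print it and 5 sites in genes whose levels were lower. They are shown because a siRNA pairs with its target in full and can also pair through its seed, bases 2 to 8 of the guide strand. The siRNA is in its sense direction, so the capitals mark the complement of that seed, GGACATT, and in each transcript the same letters are in capitals (GENCODE M21 transcripts of GRCm38, sense strand only, 5′ to 3′).
siRNA: gctaccgtatgGGACATTa
Eef1aknmt, coding: tctgtgggtggGGACATTggggtccggact
Eef1aknmt, 3′ UTR: tcccacacaacGGACATTtgtatcactggg
Eif4a3, coding: cggattctcagGGACATTgagcagtactac
Eif4a3, 3′ UTR: acattaaacgtGGACATTttcctgtga
Eif1, 3′ UTR: agagaagtcatGGACATTtagttcaccacc
The 7 letters occur in the longest coding transcript of 18 of the 61 tested factors (29.5%) and of 23.9% of all tested genes. They occur in 7 of the 13 lower factors, 2 of the 3 higher ones and 9 of the 45 others. The median log2 fold change was -0.20 in the factors with the letters and -0.16 in those without. In the whole table the shares were 24.9% of the lower, 25.9% of the higher and 23.6% of the other genes. Their transcripts differ in length, with medians of 2315 bases in the lower, 4250 in the higher and 3214 in the other genes, so these shares are not frequencies per base. Eef1aknmt and Eif4a3 are the factors that hold them more than once, whereas Eif6 and Eif3d do not hold them. The longest transcript need not be the one counted. The length used in the authors' quantification averaged 886 bases for Eif1 and 1078 bases for Eif4a3, whose transcripts searched here have 1322 and 1509 bases. Whether the RNA counted holds the sites shown is therefore not known. A match of letters is a description and not a binding site, and the genes to show were chosen after their values were seen.

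Eef1aknmt (ENSMUSG00000026694), which GENCODE M21 names Mettl13, had the largest fall among the called factors. It lies on chromosome 1 at 162532127-162548551 (GRCm38, minus strand) and encodes a methyltransferase that methylates eEF1A. It stood at 40.0, 29.9 and 34.3 CPM in si-NC and at 17.99, 17.0 and 16.6 CPM in si-METTL3. The si-METTL3 libraries lay close together, well below the lowest control. The log2 fold change was -1.01 ± 0.12 (SE, adjusted p = 0.00354 by edgeR), and the fitted level fell by 50.5%.

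Eef2k, on chromosome 7 at 120842831-120907450 (GRCm38, plus strand), the gene of the kinase that phosphorylates and inhibits eEF2, had the smallest adjusted p of the 3 higher factors. Its levels were 28.7, 26.2 and 32.1 CPM in si-NC and 45.9, 42.8 and 42.6 CPM in si-METTL3, with no overlap. The log2 fold change was 0.59 ± 0.10 (SE, adjusted p = 0.0105 by edgeR), and the call was lost only without si-NC 1 (adjusted p = 0.0548). None of the other modifiers of elongation factors passed the test. They are the eEF1A lysine methyltransferase genes Eef1akmt1 to Eef1akmt4 and the eEF2 methyltransferase gene Eef2kmt, with log2 fold changes from -0.47 (Eef1akmt3) to 0.12 (Eef1akmt4). Eef1akmt1, at 19.1, 16.2 and 21.4 CPM in si-NC and 17.5, 16.5 and 16.6 CPM in si-METTL3, changed sign with a correction for length and GC content, from -0.17 to 0.02.

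Among the elongation factors themselves, Eef1a1 and Eef2 did not pass the test, and 2 of the exchange factor subunits were lower. Eef1a1, which encodes the carrier of aminoacyl-tRNA, held the highest level of all 64 genes, 11438 ± 463 TPM in si-NC and 12000 ± 129.99 TPM in si-METTL3 (SD, n = 3 each). Its CPM were 10904, 9497 and 11477 in si-NC, against 10442, 10363 and 10172 in si-METTL3, and the groups overlapped (log2 fold change -0.04 ± 0.08 SE, adjusted p = 0.752 by edgeR). Eef2, the translocase, likewise overlapped, at 6044, 5139 and 6307 CPM against 5803, 5406 and 5309 CPM (-0.08 ± 0.09 SE, adjusted p = 0.551).

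Eef1g and Eef1d encode the gamma and delta subunits of eEF1B. Eef1g stood at 1331, 1121 and 1374 CPM in si-NC and at 1005, 861 and 905 CPM in si-METTL3 (log2 fold change -0.46 ± 0.10 SE, adjusted p = 0.022 by edgeR). Eef1d stood at 522, 469 and 568 CPM in si-NC and at 409, 390.3 and 389.9 CPM in si-METTL3 (-0.39 ± 0.08 SE, adjusted p = 0.0212). In both genes all 3 si-METTL3 libraries were below all controls. Eef1b2, the catalytic subunit, lay just outside the threshold (-0.29 ± 0.08 SE, adjusted p = 0.0535), also with no overlap, and passed in DESeq2 (adjusted p = 0.0361). Eef1e1, whose product belongs to the complex of tRNA synthetases, had a log2 fold change of -0.57 (adjusted p = 0.0808). Eef1a2, the paralogue of muscle and brain, had 0 counts in si-NC 1 and 49 to 78 in the other libraries. The summed level of the 6 eEF1 genes did not separate the groups, at 14832 ± 625 TPM in si-NC and 14858 ± 220 TPM in si-METTL3 (SD), since Eef1a1 makes up most of it.

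The class of eIF1 and eIF1A, the factors of start codon scanning, held 5 genes by symbol, of which Eif1 and Eif1ad were lower. Eif1, on chromosome 11 at 100319885-100322096 (GRCm38, plus strand), encodes the factor that keeps the scanning ribosome from stopping at a wrong codon. It stood at 1254, 1083 and 1321 CPM in si-NC and at 943, 801 and 835 CPM in si-METTL3. The groups did not overlap, with a log2 fold change of -0.50 ± 0.10 (SE, adjusted p = 0.0169 by edgeR). On the FPKM scale its log2 fold change was -0.33 and did not pass (limma adjusted p = 0.0556, log2(FPKM + 1)). The ratio of counts to FPKM gives the transcript length that the authors' quantification used. For Eif1 this was 945, 921 and 932 bases in si-NC and 833, 854 and 833 bases in si-METTL3, so a smaller length accompanied the smaller count (limma adjusted p = 0.126 over 8093 genes, of which 1 passed). This comparison of lengths was chosen after the values were seen. Eif1ad, placed in the class for the eIF1A domain of its product and not as a known scanning factor, stood at 152, 135 and 154 CPM in si-NC. In si-METTL3 it stood at 118, 105 and 110 CPM (-0.41 ± 0.08 SE, adjusted p = 0.0189 by edgeR).

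The other genes of this class, Eif1a, Eif1ax and Eif1b, did not pass, with log2 fold changes of -0.24, 0.19 and -0.16. Eif1a and Eif1ax both encode eIF1A. The share of Eif1ax in their summed TPM was 9.92%, 10.99% and 10.2% in si-NC, against 13.6%, 13.9% and 14.7% in si-METTL3, a shift between paralogues that neither gene's own test called. How the authors divided reads shared by paralogues is not known here, and such shares depend on that step. Shares were made for several pairs and none was tested. The groups overlapped in Eif4a1 with Eif4a2, Eif2s3x with Eif2s3y, Eif5a with Eif5a2, Eif4g1 with Eif4g2 and Eif4e2 with Eif4e. They lay apart in Eif1 with Eif1b, in Eef1a1 with Eef1a2 and in the pairs given below.

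Of the 6 genes for eIF2 and initiator tRNA delivery, only Eif2s1 passed the test. Eif2s1 encodes the alpha subunit of eIF2, which stress kinases phosphorylate. It stood at 212, 233 and 194 CPM in si-NC and at 149, 159 and 169 CPM in si-METTL3, with no overlap (log2 fold change -0.42 ± 0.09 SE, adjusted p = 0.0212 by edgeR). Unlike most of the lower genes, its highest control was si-NC 2. Eif2s2 and the 2 genes of the gamma subunit, Eif2s3x and Eif2s3y, lay at 0.01, -0.25 and 0.16, with SEs of 0.25, 0.35 and 0.30, and none passed. Eif2a and Eif2d, which can deliver initiator tRNA apart from eIF2, lay at -0.11 and -0.02.

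None of the 5 eIF2B genes passed in edgeR, where 2 had an unadjusted p under 0.05 and DESeq2 called 1 of them (Eif2b4), though all 5 had negative log2 fold changes, from -0.11 (Eif2b3) to -0.32 (Eif2b4, edgeR adjusted p = 0.0501, the nearest to the threshold of all factors outside it). Eif2b1, the most abundant, stood at 116, 103 and 118 CPM in si-NC and at 95.7, 91.8 and 96.6 CPM in si-METTL3, with no overlap (adjusted p = 0.0685). The summed level of the 5 genes was 481, 441 and 461 TPM in si-NC and 425, 392 and 422 TPM in si-METTL3, each of the latter below every control.

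Of the 14 genes for eIF3, the large complex that bridges the small subunit and eIF4G, 4 were lower (Eif3d, Eif3g, Eif3l and Eif3m) and 1 higher (Eif3j1). The summed level of the 14 genes was 6265, 6289 and 6292 TPM in si-NC and 5849, 5824 and 5896 TPM in si-METTL3. The 2 groups did not overlap, and the difference between them was much larger than the spread within either. That sum is set by the abundant subunits, of which Eif3h at 976 ± 39.8 TPM in si-NC (SD) was the first. The largest fall in TPM was that of Eif3d, from 944 ± 42.9 to 688 ± 23.1. Some subunits went the other way, among them Eif3a, with 180 ± 113 and 263 ± 82.6 TPM. The sum of all 64 factors overlapped between the groups, with 39418 ± 1081 TPM in si-NC and 37715 ± 991 TPM in si-METTL3 (SD).

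Eif3d, on chromosome 15 at 77958998-77970813 (GRCm38, minus strand), encodes a subunit that can bind the cap of some messenger RNAs. It stood at 918, 791 and 964 CPM in si-NC and at 631, 604 and 589 CPM in si-METTL3. It gave the clearest change in the complex, with a log2 fold change of -0.55 ± 0.09 (SE, adjusted p = 0.00847 by edgeR). Without si-METTL3 2 or si-METTL3 3 its edgeR adjusted p was 0.05002 and 0.0508, so the call was narrowly lost. In those fits 2.72% and 2.63% of all genes were lower, against 10.2% with all libraries. The log2 fold change of Eif3d stayed between -0.63 and -0.52 whichever library was left out. Eif3g, an RNA-binding subunit, stood at 134, 122 and 142 CPM in si-NC and at 108, 97.4 and 95.7 CPM in si-METTL3 (-0.40 ± 0.09 SE, adjusted p = 0.0206).

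Eif3m and Eif3l, subunits of the core of the complex, were lower by less, with log2 fold changes of -0.26 (edgeR adjusted p = 0.0362) and -0.29 (adjusted p = 0.0487). Each was called in 1 of the 6 fits that leave out a library, the one without si-NC 2, and neither was called with the length correction (adjusted p = 0.165 and 0.0588). Eif3f (-0.31, adjusted p = 0.0524) lay just outside the threshold and passed in DESeq2 (adjusted p = 0.0330). Eif3h, the most abundant subunit gene, stood at 668, 591 and 716 CPM in si-NC and at 583, 539 and 534 CPM in si-METTL3, and did not pass (-0.25, adjusted p = 0.083). The remaining subunits Eif3b, Eif3c, Eif3e, Eif3i and Eif3k lay between -0.15 and 0.00.

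Eif3a, the gene of the largest scaffold subunit, varied within the groups more than between them. It stood at 342, 775 and 288 CPM in si-NC and at 413, 757 and 768 CPM in si-METTL3, so si-NC 2 matched the high si-METTL3 libraries. Its log2 fold change was 0.46 ± 0.41 (SE, adjusted p = 0.441 by edgeR), and without si-NC 2 it was 1.03 (adjusted p = 0.0288).

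Eif3j1 and Eif3j2 are near-identical copies of the gene for the loosely bound j subunit. Eif3j1 was higher, at 16.2, 18.2 and 15.3 CPM in si-NC and 20.2, 29.2 and 33.7 CPM in si-METTL3 (log2 fold change 0.74 ± 0.19 SE, adjusted p = 0.0359 by edgeR), with no overlap. Eif3j2 stood at 39.0, 56.9 and 35.3 CPM in si-NC and 34.2, 45.5 and 43.2 CPM in si-METTL3 (-0.09, adjusted p = 0.759). The share of Eif3j1 in their summed TPM was 19.7%, 15.0% and 16.9% in si-NC, against 24.6%, 32.3% and 32.9% in si-METTL3. The transcript length behind the TPM of Eif3j1 also differed between libraries, and a smaller length raises TPM. It was 4024.6, 4321.6 and 5052.5 bases in si-NC and 4297.6, 3194.8 and 3792.8 bases in si-METTL3. Since the copies share reads, the value of each is uncertain, and with a correction for length and GC content the log2 fold change of Eif3j1 was 0.41 (adjusted p = 0.0581).

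**Figure D3:**
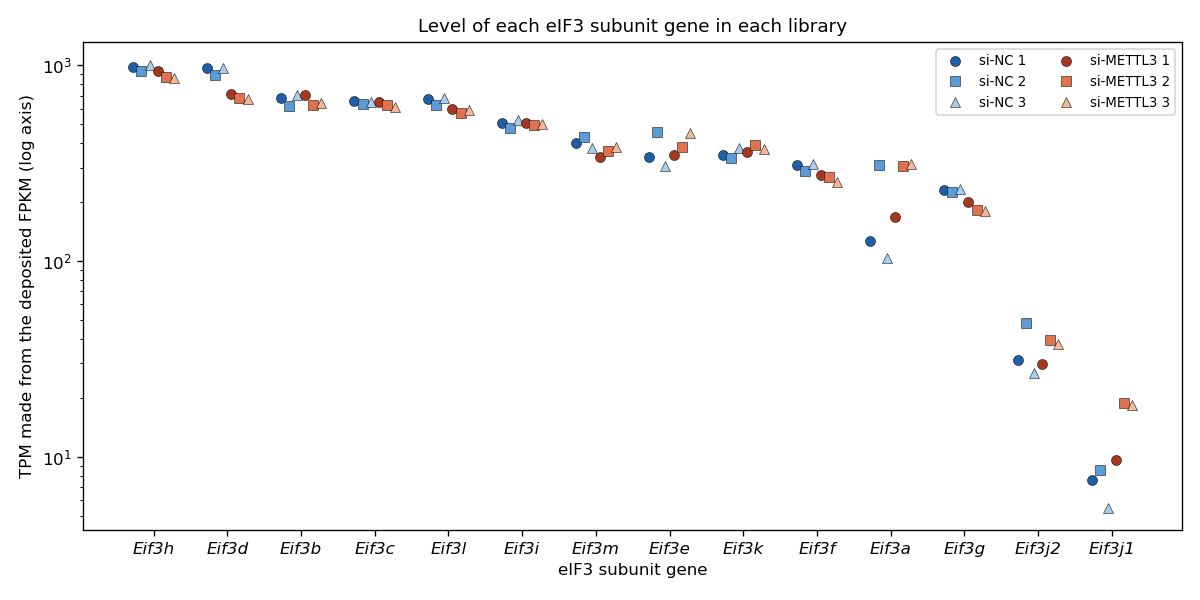
TPM of the 14 eIF3 subunit genes in each library on a log axis, ordered by level, si-NC in blue and si-METTL3 in red. The abundant subunits sit between about 200 and 1000 TPM with Eif3d showing a clear gap between the colours, Eif3a splits by library rather than by group, and Eif3j1 is the least abundant and higher in the red points.

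The cap-binding and helicase group held 12 genes, of which 10 were tested, 1 was lower (Eif4e2) and 1 higher (Eif4g3). Eif4e2 encodes 4EHP, a cap-binding relative of eIF4E that represses translation. It stood at 179, 157 and 188 CPM in si-NC and at 140.5, 126 and 129 CPM in si-METTL3, with no overlap (log2 fold change -0.40 ± 0.09 SE, adjusted p = 0.0235 by edgeR). Eif4e itself, at 42.0, 51.4 and 40.7 CPM in si-NC and 38.0, 38.1 and 44.1 CPM in si-METTL3, did not pass (-0.16, adjusted p = 0.374).

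Eif4g3, the paralogue of the eIF4G scaffold also called eIF4GII, had the largest rise among the called factors and a low level. It stood at 1.65, 1.92 and 2.89 CPM in si-NC and at 3.94, 4.90 and 4.58 CPM in si-METTL3, from 58 to 126 counts per library. The log2 fold change was 1.05 ± 0.24 (SE, adjusted p = 0.0266 by edgeR), and with a correction for length it was 0.81 and did not pass (adjusted p = 0.0721). Eif4g3 made up 0.115% ± 0.045 of the summed TPM of Eif4g1 and Eif4g3 in si-NC and 0.237% ± 0.027 in si-METTL3 (SD, n = 3 each), so the main scaffold gene, Eif4g1, was far more abundant in every library. Eif4g1 itself lay at -0.05 ± 0.07 (SE, adjusted p = 0.634).

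Eif4a1, the main helicase gene and the most abundant of the group, stood at 2791, 2412 and 2892 CPM in si-NC and at 2512, 2417 and 2413 CPM in si-METTL3. The groups overlapped through si-NC 2 (log2 fold change -0.14 ± 0.08 SE, adjusted p = 0.262 by edgeR). The remaining genes, the second helicase Eif4a2, the helicase cofactors Eif4b and Eif4h, Eif4g2, and the eIF4E transporter gene Eif4enif1, lay between -0.27 and 0.18, and none passed.

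Eif4a3 (ENSMUSG00000025580) shares the helicase fold of Eif4a1 but encodes a core protein of the exon junction complex, which marks spliced messenger RNA. It lies on chromosome 11 at 119288363-119300089 (GRCm38, minus strand). It stood at 303, 273 and 338 CPM in si-NC and at 200, 186 and 183 CPM in si-METTL3. The groups lay well apart, with a log2 fold change of -0.68 ± 0.09 (SE, adjusted p = 0.00509 by edgeR), and the fitted level fell by 37.7%. Its share of the summed TPM of Eif4a1 and Eif4a3 was 12.3% ± 0.44 in si-NC and 8.76% ± 0.45 in si-METTL3 (SD, n = 3 each). Eif4a3l1, a copy with 7 to 25 counts per library, lay at 1.16 ± 0.51 (SE) and did not pass (adjusted p = 0.15).

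Of the genes for subunit joining and ribosome separation, Eif6 was lower while Eif5 and Eif5b did not pass. The product of Eif6 takes part in making the large ribosomal subunit and keeps it from joining the small one too early. Eif6 (ENSMUSG00000027613) lies on chromosome 2 at 155819832-155826925 (GRCm38, minus strand). It stood at 439.8, 379.9 and 460.2 CPM in si-NC and at 297, 281 and 279 CPM in si-METTL3, again with no overlap. The log2 fold change was -0.58 ± 0.09 (SE, adjusted p = 0.00699 by edgeR), and the fitted level fell by 33.1%. Eif5 and Eif5b lay at 0.08 and 0.10 with SEs of 0.22 and 0.35.

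Eif5a, which encodes the hypusine-bearing factor, was among the most abundant of the genes, at 3052 ± 157 TPM in si-NC and 2639 ± 158 TPM in si-METTL3 (SD, n = 3 each). Its CPM were 2184, 1888 and 2315 in si-NC, against 1822, 1589 and 1669 in si-METTL3, with no overlap. Its log2 fold change of -0.33 ± 0.10 (SE) lay just outside the threshold in edgeR (adjusted p = 0.053) and passed in DESeq2 (adjusted p = 0.0269). The rarer Eif5a2 lay at -0.09 ± 0.26 (SE).

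The libraries differed in how much they favoured genes of high or low GC content, and the factor genes followed. Across 60 factors with a known length and GC content, the correlation of a library's deviation from the gene mean with GC content was 0.01 in si-NC 1, -0.60 in si-NC 2 and 0.67 in si-NC 3. In si-METTL3 1, 2 and 3 it was 0.42, -0.07 and -0.45. The 60 include Eef1a2 (60.6% GC), which had 0 counts in si-NC 1 and lies far below the other points there. The value of si-NC 1 without that gene was not computed. Over all genes the values ran from -0.40 (si-NC 2) to 0.43 (si-NC 3), with 0.24 in si-NC 1. In each library the sign was that of the factors. These are descriptions, since the points of a library share its preparation. Of the 20 factors under 46% GC, 2 were lower and 1 higher, where 5.29% of all genes in that range were lower and 5.43% higher. Of the 15 between 46% and 52%, 3 were lower and 0 higher, against 11.1% and 9.88% of all. Of the 26 at 52% or above, 8 were lower and 2 higher, against 11.9% and 9.46% of all. Once length and GC content had been corrected for in every library, 23 factors were lower and 3 higher, against 18.3% and 12.7% of all genes. Of the 16 called genes, 14 were called in that fit too, in the same direction, and Eif3j1 and Eif3m were not. Some values moved by over 1.5 times: the log2 fold change became -0.72 for Eif2s1, -0.24 for Eif4e2, -0.33 for Eif1 and -0.26 for Eef1d. The part of GC content in the single differences was not tested further.

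**Figure D4:**
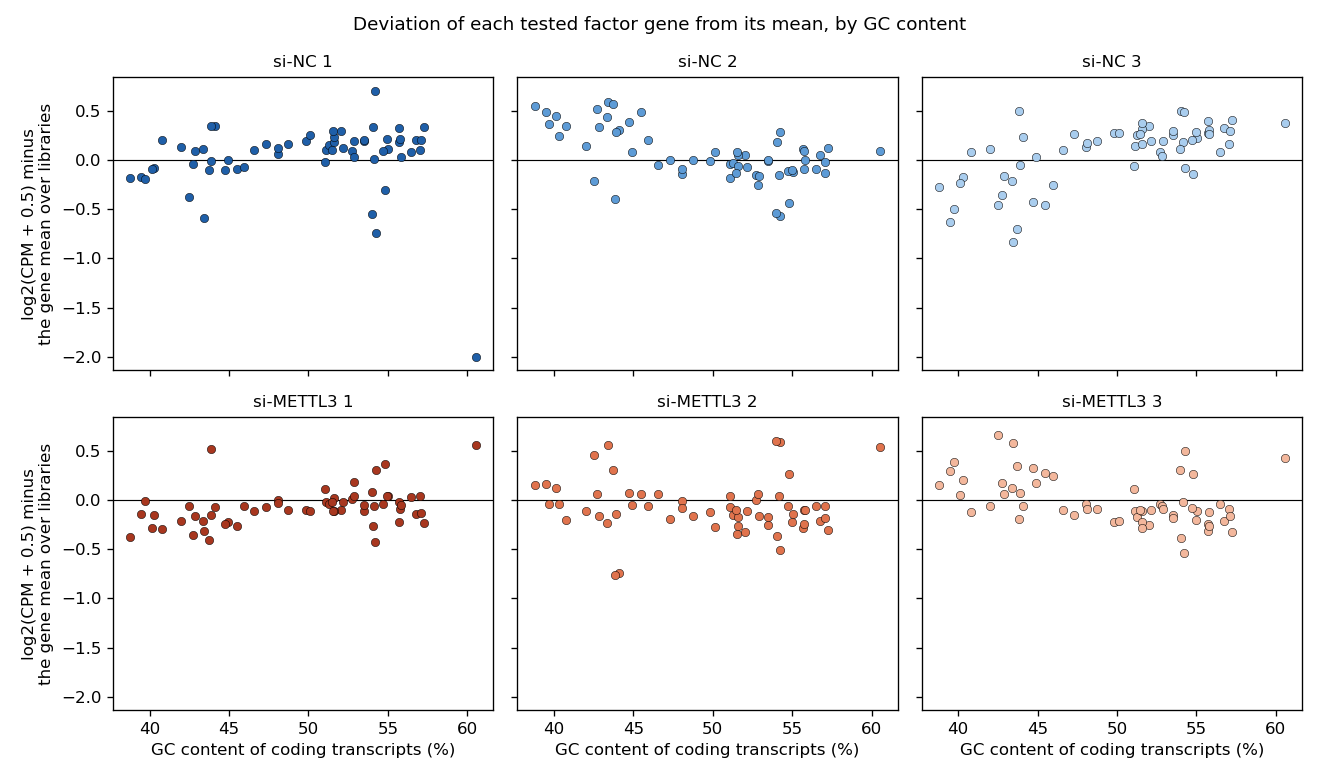
Deviation of log2(CPM + 0.5) in each library from the gene's mean over the 6 libraries, against the GC content of its coding transcripts, for 60 factor genes, with 1 panel per library. The points slope down in si-NC 2 and si-METTL3 3 and up in si-NC 3. The point near -2.0 in si-NC 1 is Eef1a2, which had 0 counts there.

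Many messenger RNAs of the translation machinery begin with a C and a run of pyrimidines, the terminal oligopyrimidine tract through which TOR acts on them. RefSeq held start sites for 49 of the factor genes, 63 starts in all (GRCm38.p6). A start that opens with C and at least 4 further C or T was found at 2 of the 63 (3.17%), in Eif3f and Eif2s3x, against 2.51% of all starts in the table. Within 3 bases of the annotated start the shares were 15.9% and 11.5%. The windows below run from 10 bases before the annotated start to 20 from it, on the sense strand. Capitals mark the longest run of that length that opens with C within 3 bases of the start. Windows are shown for the 2 genes with a run at the start and for Eef1a1, whose start is a T and whose capitals open 3 bases before it. Those of Eif4a3 and Eef1aknmt hold no run of that length there. In Eif3f, Eif2s3x and Eef1a1, C or T also stand directly before the capitals, so the whole stretch of pyrimidines is longer than marked.
Eif3f, chr7:108934405-108934434: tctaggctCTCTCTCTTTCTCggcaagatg
Eif2s3x, chrX:94212632-94212661: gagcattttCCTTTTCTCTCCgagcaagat
Eef1a1, chr9:78481705-78481734: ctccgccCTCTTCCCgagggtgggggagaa
Eif4a3, chr11:119300024-119300053: cgccttacatccggttcccgccgcggcttg
Eef1aknmt, chr1:162548326-162548355: cctgtagtggctaagattcccgccgctgct
Neither Eif3f nor Eif2s3x passed the test of RNA level. The search used the sense strand only, and an annotated start need not be the start used in these cells.

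The lncRNA table of the study also lists processed transcripts of protein-coding genes, and 50 of them belong to 29 of the factor genes. Of these, 23 had enough counts to be tested and none passed (edgeR over that table, where 0.733% of all transcripts passed), with 7 at an unadjusted p under 0.05, 5 lower and 2 higher. Limma-voom called 0 of them and DESeq2 called 2, both lower, a transcript of 447 bases of Eif1 and another of 466 bases of Eif4a3. The Eif1 transcript stood at 158, 157 and 211 CPM of that table in si-NC and at 107, 115 and 93.2 CPM in si-METTL3 (log2 fold change -0.74 ± 0.18 SE, adjusted p = 0.127 by edgeR). The Eif4a3 transcript stood at 469, 273 and 447 CPM in si-NC and at 272, 151 and 190.5 CPM in si-METTL3, with a narrow gap between the groups (-0.95 ± 0.28 SE, adjusted p = 0.188). In both transcripts the sign was that of the gene in the mRNA table. Another tested transcript of each did not follow, 1 of Eif1 at 0.02, with 986 ± 180.3 CPM in si-NC and 999.7 ± 164 CPM in si-METTL3 (SD, n = 3 each), and 1 of Eif4a3 at 0.57 (adjusted p = 0.598). These transcripts overlap the coding ones, so reads of either cannot be told apart here.

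Other genes of translation came from a list of 74, which holds the eIF2 kinases and 4E-binding proteins left out above, release and mitochondrial factors, and TOR signalling, and 73 were tested. In si-METTL3, 4 were higher (5.48%, against 8.67% of all tested genes) and 11 lower (15.1%, against 10.2%), and the median log2 fold change was 0.00, against 0.03. Among those that act on the phosphorylation of eIF2, both phosphatase subunit genes were lower. Ppp1r15a, which is induced by stress, stood at 163, 127 and 154 CPM in si-NC and at 89.1, 73.5 and 75.0 CPM in si-METTL3 (log2 fold change -0.90 ± 0.12 SE, adjusted p = 0.00511 by edgeR). Ppp1r15b, its constitutive relative, stood at 466, 389 and 442 CPM in si-NC and at 332, 293 and 312 CPM in si-METTL3 (-0.47 ± 0.09 SE, adjusted p = 0.0153), and the log2 fold change was -0.71 with the length correction. In both genes the groups did not overlap, and none of the 4 eIF2 kinase genes passed in edgeR or DESeq2, or had an unadjusted p under 0.05.

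Of the genes that act on eIF4 factors, Pdcd4, an inhibitor of the eIF4A helicase, was higher. It stood at 11.1, 13.6 and 12.9 CPM in si-NC and at 18.1, 19.4 and 21.4 CPM in si-METTL3 (log2 fold change 0.65 ± 0.12 SE, adjusted p = 0.0133 by edgeR). The 4E-binding protein gene Eif4ebp1 had a log2 fold change of -0.55 and did not pass (adjusted p = 0.0814). Paip2b, which encodes an inhibitor of the poly(A)-binding protein, was lower, at 33.0, 34.5 and 32.9 CPM against 20.6, 21.5 and 21.4 CPM (-0.66 ± 0.08 SE, adjusted p = 0.00335). Pabpc1, the gene of that protein, was also lower (-0.31, adjusted p = 0.0388).

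Dph5 and Dph2, which make the diphthamide of eEF2, were lower, with log2 fold changes of -0.73 ± 0.09 (SE, adjusted p = 0.00355 by edgeR) and -0.43 (adjusted p = 0.0313). Dph5 stood at 23.7, 23.7 and 22.4 CPM in si-NC and at 13.7, 13.5 and 14.9 CPM in si-METTL3. Of the 10 genes of release, recycling and rescue, Etf1, the gene of the release factor that reads stop codons, was the only one called. It was higher, at 235, 256 and 202 CPM in si-NC and 317, 337 and 364 CPM in si-METTL3 (0.56 ± 0.10 SE, adjusted p = 0.0135). With the length and GC correction the log2 fold change of Etf1 was 0.31 and still passed (adjusted p = 0.0191).

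In the TOR pathway, Rheb, the activator of the kinase, and Rps6, a ribosomal target of its signalling, were lower (-0.37, edgeR adjusted p = 0.0155, and -0.39, adjusted p = 0.0212), while Tsc1, part of its inhibitor, was higher (0.29, adjusted p = 0.0348). The other 7 of the 10 listed genes of TOR and S6 kinase signalling were not called. Over the 10 the median log2 fold change was 0.06, with 6 positive and 4 negative. The call of Tsc1 was lost with the length correction (0.03, adjusted p = 0.915) and with that for length and GC content (0.13, adjusted p = 0.249), and in the latter fit Rps6 was at -0.23. Denr, a reinitiation factor, stood at 29.8, 30.8 and 28.6 CPM in si-NC and at 19.6, 16.8 and 22.6 CPM in si-METTL3 (-0.60 ± 0.12 SE, adjusted p = 0.0188). The other called genes were Dap (0.61), Pstk (-0.49) and Tufm (-0.34).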

How the data were processed

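The authors deposited an mRNA table and a lncRNA table with counts and FPKM per library, per the file headers. The submitters' processing notes name RSEM, StringTie, Bowtie2 and fastp and the build mm9, without versions or roles. The use of strand and the division of reads between paralogues are not given in the sources that were used. The log2 fold changes and p-values in the authors' deposited table come from a test that is likewise not given.

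The test of counts was that of edgeR 4.0.16 under R 4.3.3 (TMM, filterByExpr, quasi-likelihood test, group as the only term), over each whole table, with Benjamini-Hochberg adjustment and a threshold of 0.05. CPM use the effective library size, except the marker sums, which use the library total. The SE was taken as the size of the log2 fold change over the root of its F statistic. TPM were made from the deposited FPKM of the mRNA table. Positions, lengths and GC content came from GENCODE M21 (GRCm38), which held all 64 identifiers, and no coordinate was converted between builds. Implied lengths were calibrated per library on 848 genes with a single transcript and compared with limma 3.58.1.

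The factors and lists were chosen with earlier results of these data known. Values are given per library for the called factors, at most the 14 of smallest adjusted p, for the most abundant gene of each class, and for up to 10 called related genes. Genes outside that rule (among them Eif3a, Eif3j2 and Eif4e) were chosen after their values were seen. In simulated data of 12958 genes, the mRNA test recovered 41%, 82.6% and 97% of 1.5-, 2- and 4-fold changes, and 3.29% of its calls were false. In the lncRNA simulation of 5380 transcripts it recovered 3.51%, 12.1% and 53.1%. No 2 libraries held identical counts. Alternatives were DESeq2 1.42.0, limma-voom, RLE and upper-quartile factors, no filter, limma on log2(FPKM + 1) and log2(FPKM + 0.1), a replicate block, length and GC corrections, and leaving out each library.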

Additional observations from a re-analysis of the deposited data

How the results depend on the processing

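The median log2 fold change of the factors stayed negative in all alternatives, from -0.22 to -0.15 when 1 library was left out. The number of factors lower, 13 over all libraries, was 8 with the replicate block (against 5.43% of all genes), 23 with the length and GC correction and 3 to 28 when 1 library was left out, and the number higher, 3 over all libraries, was 0 to 4 when 1 library was left out. Of the related genes, 2 were higher and 7 lower with the replicate block (against 4.3% and 5.43% of all genes), 17 were lower with the length and GC correction (against 18.3% of all), and 0 to 9 were higher and 3 to 20 lower when 1 library was left out. In the lncRNA table DESeq2 called 2 transcripts of the factors lower, against none in edgeR. With the length and GC correction the log2 fold change of Eef1akmt1 turned from -0.17 to 0.020. The cause of these shifts was not tested. A tally over the alternatives covered only the 32 genes picked by the rule for values per library, Mettl3 included, 510 values in all. Of these values, 434 kept their direction and side of the threshold, 67 kept the direction but no longer passed, 8 passed newly and 1 reversed. Called genes outside that rule, among them Eif3m, Eif3l and Tsc1, were not counted. Those named here lost their calls with the length correction. Same-numbered libraries of the 2 groups deviated together with correlations of 0.071, 0.20 and -0.31. Among the si-METTL3 libraries only number 2 correlated best with its own number. These values show no common deviation by replicate number. Shifts of whole libraries, such as those with GC content, enter them, so they cannot decide whether same-numbered libraries were handled together. In data simulated with the depth of these 6 libraries and the fitted trend of spread, most 1.5-fold changes were missed, and nearly all of them in the lncRNA table. Depth was not varied on its own. The GC shifts between libraries were not simulated and few genes were changed, so these shares need not hold for the real data.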
